A study of Homo sapiens with 38 samples.

Results

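Human naive pluripotent stem cells that leave their maintenance medium pass through capacitation, a transition towards the later epiblast state from which they can form somatic lineages. The comparison described here asked how gene expression at day 4 differed when N2B27 basal medium was supplemented with the tankyrase inhibitor XAV939 (XAV). It used 4 of 38 RNA libraries of the series, the samples titled XAV d4, Ex2 (2 libraries) and N2B27 d4, Ex2 (2 libraries), where Ex2 is the second of the differentiation experiments. All cells were Shef6, an established human embryonic stem cell line, kept in the naive state on a serum coating and then plated on Geltrex, a basement membrane matrix, with a ROCK inhibitor on the day of plating only. XAV cells differed from N2B27 cells by the added inhibitor, and FAX cells of the same experiment (2 libraries) also received FGF2 and Activin A. The N2B27 day 4 libraries of the first experiment, Ex1 (2 libraries), served as a check of the reference, and naive cells on Geltrex in PXGL at day 0 (2 libraries in each experiment), the Ex1 N2B27 libraries of days 2 to 8, and Ex1 cells at day 4 in the commercial media E8 or mTeSR (2 libraries each) gave the background. PXGL, the naive medium, itself contains XAV beside inhibitors of MEK and PKC and the cytokine LIF, so the N2B27 cells had lost an inhibitor that the XAV cells kept. A single cell line was used. The paper's legends call such libraries technical replicates in some figures and biological in another, so whether a pair came from separate cultures is not known. The XAV comparison comes from 1 experiment, and its p-values rest on the spread within library pairs over all groups of both experiments.

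Tankyrases attach chains of ADP-ribose to target proteins, which the ubiquitin ligase RNF146 then marks for degradation. AXIN, the scaffold of the complex that destroys beta-catenin, is such a target, and tankyrase inhibitors are best known for raising AXIN protein and thereby lowering transcription of WNT/beta-catenin target genes. Angiomotins, which hold the Hippo pathway effectors YAP and TAZ out of the nucleus, are also tankyrase targets. YAP and TAZ act through TEAD transcription factors, and many genes of the contractile cytoskeleton are controlled in addition by SRF, which binds a DNA element called the CArG box. None of these proteins was measured here, and the values below are transcript levels.

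The 4 libraries held 3856149 to 5024010 counts, the XAV libraries being the deeper ones (4957636 and 5024010, against 3856149 and 4248636 in N2B27). Levels are CPM (counts relative to a shared library total, scaled by TMM) and have not been divided by gene length because each transcript gives reads only near its 3′ end in this protocol. The share of mitochondrial transcripts was 2.38 to 3.03% and that of ribosomal protein transcripts 8.70 to 8.93%, with overlapping ranges in both media. Each library was closest to its own replicate across genes, with a Pearson's r of 0.985 within XAV, 0.982 within N2B27 and 0.978 to 0.979 between them, and replicates differed by more than counting noise. The summed level of 5 embryonic stem cell markers was 3152 to 3207 CPM in N2B27 and 3316 to 3379 CPM in XAV, so both groups carried the identity that the labels give. Of 12 fibroblast markers, 8 passed the filter on low counts. The summed level of all 12 was 94.1 and 94.2 CPM in N2B27 and 64.6 to 72.1 CPM in XAV, most of it from COL1A2 (68.5 and 69.2 CPM in N2B27, 46.5 and 55.0 CPM in XAV). DCN was at 0 counts in all 4 libraries, and COL3A1 and LUM were at 0 in both XAV libraries and at 0 to 0.261 CPM in N2B27.

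Of 16674 genes tested, 89 were lower with XAV (0.534% of the genes) and 6 were higher (0.036%), at an adjusted p under 0.05 and an absolute log2 fold change above 1. All 95 together made up 0.57% of the genes. The genes that fell furthest among those of at least 20 CPM included actins and other parts of the contractile apparatus, the natriuretic peptide precursor NPPB, the annexin ANXA1 and the morphogen BMP4. The genes that rose were KIT, GYPC, ABCA1, and, at lower levels and named after their values were seen, RGS4, ANKRD35 and ST3GAL6. Without the threshold on fold change, 200 genes were lower (1.2%) and 23 were higher (0.138%). The 89 became 52 without XAV replicate 1 and 53 without N2B27 replicate 2, and 37 of the 89 and 2 of the 6 (GYPC and RGS4) were called in all 4 fits that left out 1 library. Of the genes described below, ANKRD1, TNNT2, STAC, FLNC, PALLD, PLAU, WNT9A, GATA3, CYP26A1, THBS1, COL18A1, NRP2, EFNA1, NRK, LVRN, MAMDC2, BIN2, RAB17, WWC3, KIT, ABCA1, ANKRD35 and ST3GAL6 lost their call in at least 1 of those fits. The median log2 fold change over all genes was 0.00803, so the values below can be read against a centre close to 0.

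**Figure D1:**
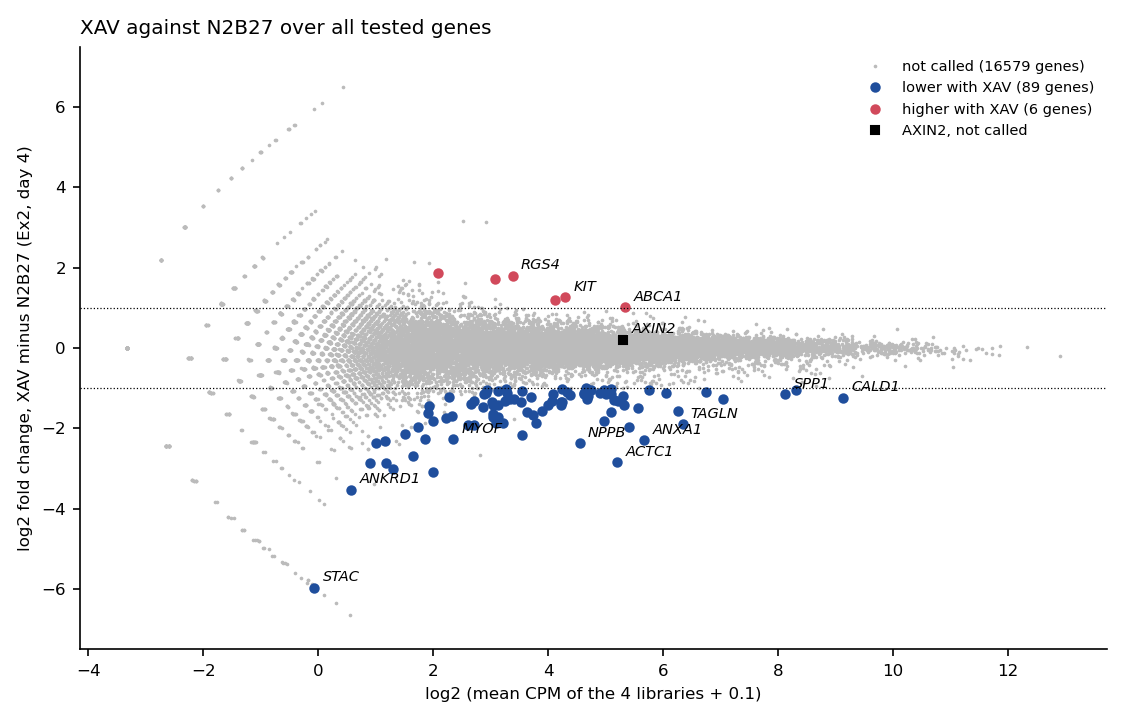
Log2 fold change of XAV minus N2B27 (Ex2, day 4; vertical axis) against the log2 mean level of the 4 libraries in CPM (horizontal axis, 0.1 CPM added) for 16674 tested genes. Blue points are the 89 genes lower with XAV, red points the 6 higher, grey points the rest, the black square is AXIN2, and dotted lines mark the threshold on fold change. The calls lie almost all below 0, while AXIN2 sits within the grey band at 0.21.

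Contractile genes made up the group with the most calls. A list of 20 genes of actomyosin and SRF targets was tested in full, and 7 of them (35%, against 0.534% of all genes) fell. The median log2 fold change was -0.75 over the list, against 0.00803 over all genes. The list was chosen with earlier results of these data known, so these shares are a description and not a test. A further 4 had an adjusted p under 0.05 at a smaller change, 19 of 20 had a value below 0, and none was called higher. The exception in sign, ACTA2, held at most 2 counts in any of the 4 libraries and was at the floor of detection. The 7 that fell were ACTC1, TAGLN, MYL9, CNN1, ACTG2, CALD1 and TPM1. The summed level of the fibroblast markers was also lower in the XAV libraries, as given above. COL1A2 and COL1A1 (15.4 and 13.8 CPM in N2B27, 9.46 and 9.36 CPM in XAV) carried most of it. Other markers overlapped between the groups, such as TWIST2 (5.21 and 4.995 CPM against 5.03 and 4.98 CPM). The part of fibroblasts in the falls of contractile genes was not tested.

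ACTC1, the cardiac alpha-actin gene (chromosome 15, 34790107 to 34795589, minus strand, GRCh38), had the largest fall among genes of at least 20 CPM. It stood at 57.3 and 71.6 CPM in N2B27 and at 8.85 and 9.16 CPM with XAV, a 7.15-fold difference (log2 fold change -2.84, SE 0.20, 95% interval -3.24 to -2.43, adjusted p = 3.36e-11). ACTA1, the skeletal muscle actin gene, was at 58.1 and 77.3 CPM against 15.3 and 19.5 CPM (log2 fold change -1.96, SE 0.20, adjusted p = 1.25e-07). The enteric smooth muscle actin gene ACTG2 was at 21.1 and 22.8 CPM against 8.65 and 6.17 CPM (log2 fold change -1.57, SE 0.25). These actins have near-identical coding sequences, and how reads shared between them were assigned was not checked. The cytoplasmic actin genes ACTB (-0.29, SE 0.16) and ACTG1 (-0.13, SE 0.13), which every cell uses at high levels, did not pass the test.

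TAGLN, which encodes the actin-binding protein transgelin, had little spread within each group. Its level was 125.8 and 129.4 CPM in N2B27 and 32.0 and 36.2 CPM with XAV, a 3.74-fold difference (log2 fold change -1.90, SE 0.17, adjusted p = 9.31e-09). CNN1, or calponin, was at 106.8 and 122.2 CPM against 39.6 and 37.4 CPM. MYL9, a regulatory light chain of non-muscle and smooth muscle myosin, was at 16.9 and 23.3 CPM against 5.64 and 6.97 CPM. The libraries of both groups did not overlap for any of these genes, a separation that 47.4% of all tested genes also show with 2 libraries a side.

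Of the 7 genes, the most abundant fell by the smallest folds. CALD1, encoding the actin- and myosin-binding caldesmon, was at 752.2 and 824.8 CPM in N2B27 and 344.3 and 324.8 CPM with XAV (log2 fold change -1.24, SE 0.11, adjusted p = 6.15e-09). The tropomyosin gene TPM1 was at 422.6 and 435.0 CPM against 204.5 and 211.9 CPM (log2 fold change -1.04, SE 0.12). TPM2 (-0.97), TAGLN2 (-0.94), the focal adhesion gene VCL (-0.74) and the actin crosslinker ACTN1 (-0.66) passed the adjusted p but not the fold. SRF itself was at 324.1 and 296.8 CPM against 270.3 and 293.1 CPM, a log2 fold change of -0.14 with a 95% interval of -0.61 to 0.33 that includes 0.

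Some called genes outside the list also encode contractile or actin-associated proteins, and how many such genes did not fall was not counted. TTN, the giant sarcomere spring titin, was at 53.4 and 44.5 CPM in N2B27 and 15.5 and 12.4 CPM with XAV (log2 fold change -1.81, SE 0.25). CSRP1, a LIM-domain protein of actin filaments, had a log2 fold change of -1.86 (SE 0.28), and PALLD, which encodes the actin scaffold palladin, one of -1.43 (SE 0.24). NEXN, FLNC, LPP and TNNT2, which were chosen after their values were seen, encode a filamin-associated protein, a filamin, a focal adhesion protein and cardiac troponin T. NEXN was at 51.1 and 54.9 CPM against 21.7 and 20.5 CPM, and LPP at 92.0 and 88.2 CPM against 40.2 and 43.02 CPM. TNNT2 was rare, with 25 counts over both N2B27 libraries and 4 over both XAV libraries, a ratio of 7.76 with a counting interval of 2.68 to 30.7. STAC, also chosen after its values were seen, had 0 counts in both XAV libraries and was at least 2.83-fold lower than in N2B27, taking 3 counts per library as the floor.

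**Figure D2:**
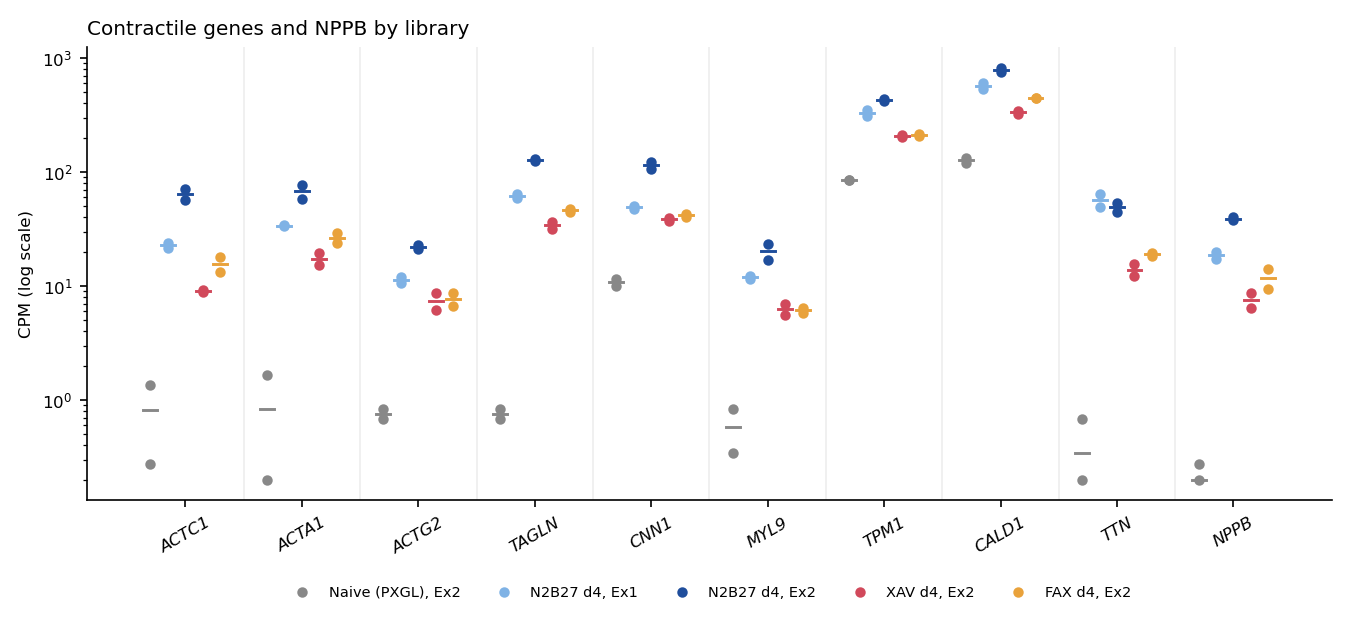
Level of 9 contractile genes and NPPB in each library (points; vertical axis, CPM on a log scale) with the mean of each pair as a bar, for naive cells of Ex2 (grey), N2B27 at day 4 of Ex1 (light blue) and Ex2 (dark blue), XAV (red) and FAX (orange). Libraries under 0.2 CPM are drawn at 0.2. For each gene both XAV libraries lie below both dark blue ones, and the light blue libraries lie below the dark blue ones for every gene but TTN.

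Short stretches of promoter show the element by which SRF is known to bind such genes. RefSeq windows (GRCh38.p14) of 250 bases before to 50 after a start were found for 68 of the 89 lower genes and for 17 of the 20 genes of the actomyosin list, and the table is not complete. A CArG box, searched on both strands and chosen after the values were seen, was present in 12 of 46 windows of the actomyosin list (26.1%), in 5 of 132 windows of the lower genes (3.79%) and in 1.12% of the windows of all tested genes. In the actomyosin list 10 genes had a match, of which ACTC1 and ACTG2 were called. The others, ACTG1, ACTN1, CNN2, FHL1, FHL2, FLNA, SRF and TPM4, were not called. Some called members of the list had no window, TAGLN and MYL9 among them. A match of letters is a description and not evidence of binding. The stretches of ACTC1 (chr15:34795629-34795678, minus strand) and ACTA1 (chr1:229434162-229434211, minus strand) are given because these are the actins that fell furthest, with the CArG box in capitals.

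ACTC1: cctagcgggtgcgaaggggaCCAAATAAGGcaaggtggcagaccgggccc
ACTA1: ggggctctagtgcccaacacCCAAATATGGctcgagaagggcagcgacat

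Targets of YAP and TEAD gave fewer calls. Of 22 listed genes, 20 were tested and 2 fell, MYOF and ANKRD1 (10%, against 0.534% of all genes). The median log2 fold change was -0.42, against 0.00803 over all genes, with 17 of 20 values below 0. MYOF, a membrane repair protein of the ferlin family, was at 8.34 and 8.33 CPM in N2B27 and at 1.41 and 1.99 CPM with XAV (log2 fold change -2.27, SE 0.40, adjusted p = 0.000675). ANKRD1, a cardiac ankyrin repeat protein that is among the best-known YAP targets, had 21 counts over both N2B27 libraries and 2 over both XAV libraries, a ratio of 13.0 with a counting interval of 3.19 to 115. The count of 2 calls was 1 with DESeq2 and when either XAV replicate 1 or N2B27 replicate 2 was left out, and 3 with a stricter filter, without N2B27 replicate 1, and with N2B27 of Ex1 or of both experiments as the reference.

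Other members of the list passed the adjusted p at under a doubling. The matricellular gene CCN1 (CYR61 in the deposited table) was at 129.2 and 134.9 CPM against 64.8 and 67.9 CPM, a log2 fold change of -0.99 (SE 0.14, adjusted p = 4.96e-05) just short of the threshold. It was called lower in 7 of 15 other settings, over which its log2 fold change ran from -1.18 to 0.25. NUAK2 (-0.89), AMOTL2 (-0.77) and PTPN14 (-0.62) were likewise past the adjusted p. CCN2 (CTGF in the table), the other matricellular gene usually read with CCN1, was at 57.6 and 67.1 CPM against 44.1 and 52.97 CPM and did not pass (-0.36, SE 0.20). Of 19 genes of the Hippo pathway and the angiomotins, none was called, and only AMOTL2 and TEAD1 (-0.79, SE 0.16) had an adjusted p under 0.05. YAP1 (-0.07), TAZ (WWTR1, 0.18) and AMOT (-0.01) were close to 0.

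The TEAD core GGAATG, on either strand, was found in 30 of 132 windows of the lower genes (22.7%), in 8 of 16 windows of the YAP/TEAD list (50%) and in 11.4% of the windows of all tested genes. In a short motif of this kind matches arise often without binding. The window of ANKRD1 (chr10:90921190-90921327, minus strand) holds 2 such cores in the stretch before its start, shown in capitals, and is given as the listed target with the largest fall.

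ANKRD1: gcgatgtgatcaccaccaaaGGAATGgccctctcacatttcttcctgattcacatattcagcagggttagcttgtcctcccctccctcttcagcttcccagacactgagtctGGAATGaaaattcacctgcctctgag

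Feedback targets of WNT/beta-catenin were not among the called genes. Of 17 listed genes, 14 were tested, and 0 passed in either direction with edgeR, 0 had an unadjusted p under 0.05, and DESeq2 also called 0. The median log2 fold change of the list was 0.0025, against 0.00803 over all genes. It was -0.12 against the pooled N2B27 libraries of both experiments, -0.21 against those of Ex1, and 1.18 against Ex1 with the difference between the naive cells taken out, references that are described below. AXIN2, the most widely used readout of the pathway, was at 36.0 and 37.1 CPM in N2B27 and 40.5 and 44.01 CPM with XAV, a log2 fold change of 0.21 (SE 0.20) with a 95% interval of -0.19 to 0.61. This interval leaves out a fall of AXIN2 by more than 0.19 on the log2 scale between these libraries. With the same 3 references AXIN2 was at 0.11, 0.0014 and 0.82, and it was called with none of them.

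Of the other feedback genes, BAMBI and CCND1 had narrower intervals than AXIN2. BAMBI, a decoy receptor of TGF-beta signalling, had means of 26.4 CPM in N2B27 and 26.5 CPM with XAV (log2 fold change 0.0067, 95% interval -0.32 to 0.33). CCND1, the cyclin D1 gene, had means of 54.4 and 64.9 CPM (0.26, interval -0.08 to 0.59), and MYC means of 31.2 and 25.6 CPM (-0.29, interval -0.70 to 0.13). The remaining genes had wider intervals than AXIN2, and some were too rare to read. ZNRF3, a ligase that removes WNT receptors, was at 24.2 and 30.7 CPM against 22.7 and 26.1 CPM (-0.17, 95% interval -0.73 to 0.39). TCF7, a nuclear partner of beta-catenin, stood at 0.08 with an interval of -0.35 to 0.51. The transcription factor SP5 was at 11.5 and 22.6 CPM in N2B27 and at 12.5 and 11.6 CPM with XAV, so that the N2B27 libraries spread across the XAV values (-0.51, SE 0.29). RNF43, the partner of ZNRF3, had a log2 fold change of -1.02 at levels of 0.797 to 2.14 CPM, with an adjusted p of 0.608. LGR5 had 0 counts in all 4 libraries, and DKK1 had 1 count in a single N2B27 library.

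The machinery that the inhibitor acts on gave no calls. None of 12 genes of the tankyrases and the destruction complex passed, none had an unadjusted p under 0.05, and their median log2 fold change was 0.012. TNKS was at 22.2 and 21.2 CPM against 22.3 and 22.3 CPM (0.04, 95% interval -0.27 to 0.36), and TNKS2 at 34.4 and 35.2 CPM against 33.4 and 31.1 CPM (-0.11, interval -0.45 to 0.23). RNF146 had the lowest value of the list, with means of 25.04 CPM in N2B27 and 19.6 CPM with XAV (-0.35, interval -0.79 to 0.08). AXIN1 (0.012), APC (0.013) and CTNNB1, the beta-catenin gene (-0.19, interval -0.43 to 0.06), did not pass the test. Transcripts do not report on protein stability, which is the step at which tankyrase is known to act.

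Among 34 WNT ligands and receptors, 24 were tested and none was called, while the receptor ROR1 passed the adjusted p at a log2 fold change of -0.61 (51.3 and 55.9 CPM against 32.6 and 37.8 CPM). The ligand gene WNT9A, which was not on the list and was chosen after its values were seen, fell from 12.2 and 11.4 CPM to 4.23 and 4.58 CPM (log2 fold change -1.42, SE 0.36, adjusted p = 0.0353). Of 7 WNT antagonists tested, none was called. The TCF/LEF core CTTTGAT, on either strand, was in 0 of 132 windows of the lower genes and in 1.57% of the windows of all tested genes.

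**Figure D3:**
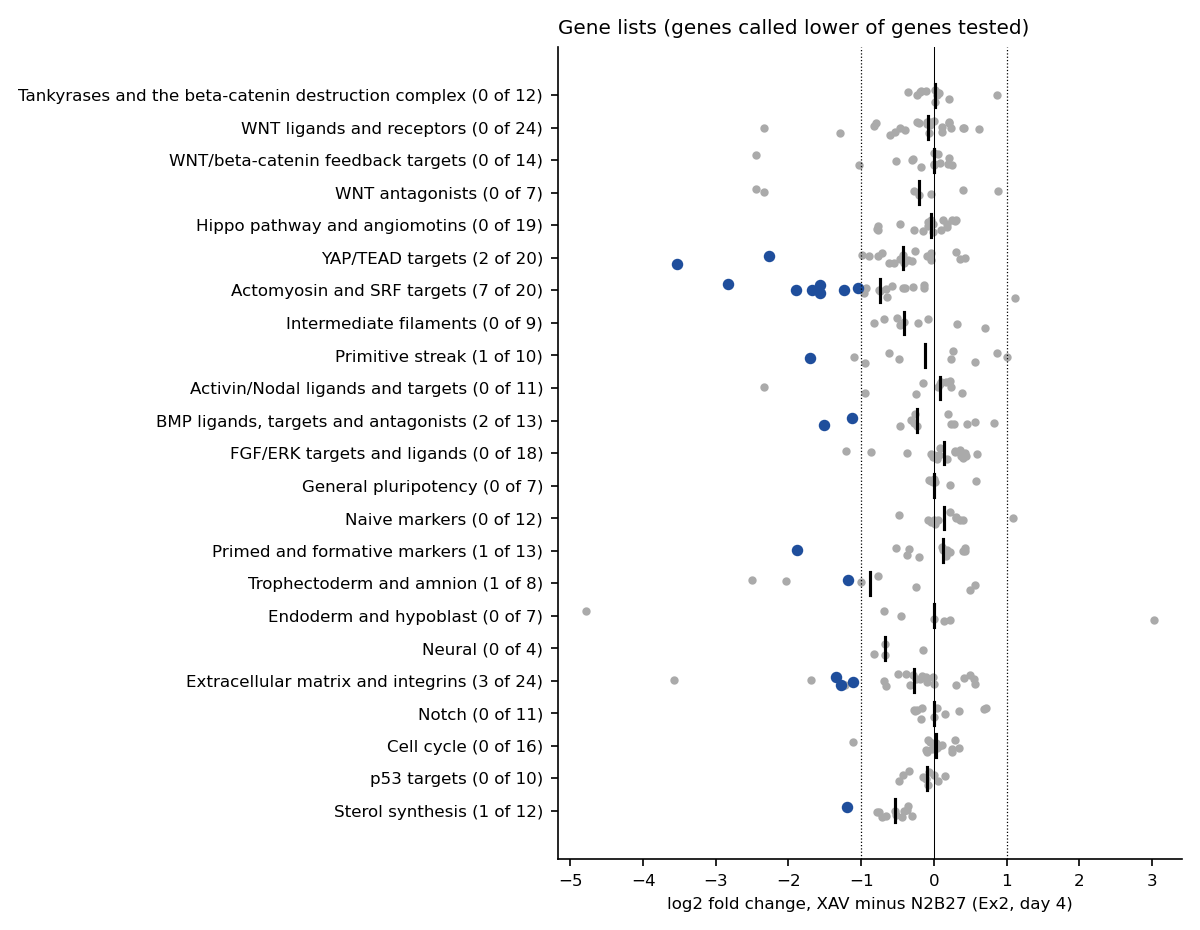
Log2 fold change of XAV minus N2B27 (Ex2, day 4; horizontal axis) for each tested gene of 23 lists (rows). Blue points passed the test, grey points did not, black bars are list medians, dotted lines mark the threshold on fold change, and the numbers give genes called lower of genes tested. Actomyosin and SRF targets hold 7 of 20 calls, and the WNT/beta-catenin feedback targets hold 0 of 14. Some grey points far from 0 are genes of a few counts.

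Signalling ligands and lineage genes gave single calls. BMP4, the ligand that induces amnion and mesoderm genes, was at 67.7 and 72.8 CPM in N2B27 and 27.4 and 22.1 CPM with XAV (log2 fold change -1.51, SE 0.15, adjusted p = 8.65e-08). GREM1, a secreted BMP antagonist, fell from 34.7 and 32.6 CPM to 15.9 and 14.9 CPM. These were 2 of 13 tested genes of the BMP list (15.4%), where 0.534% of all genes were called lower. For the lists that follow, counts of lower genes against N2B27 of Ex2 can be set beside the same all-gene share. The direct BMP targets ID1 (118.3 and 138.4 CPM against 150.3 and 161.7 CPM) and ID3 (35.2 and 42.1 CPM against 53.9 and 52.0 CPM) had fold changes of 0.28 and 0.45 on the log2 scale and were not called.

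GATA3, a transcription factor of trophectoderm and amnion, was at 25.3 and 32.1 CPM in N2B27 and 12.3 and 13.1 CPM with XAV (log2 fold change -1.18, SE 0.24, adjusted p = 0.00384). It was the only call among 8 tested genes of that list. Of 10 tested primitive streak genes, CYP26A1, an enzyme that degrades retinoic acid, was the only call (-1.70, SE 0.38). The streak factor TBXT was at 16.9 and 21.9 CPM against 9.46 and 10.8 CPM and passed neither threshold (log2 fold change -0.94, adjusted p = 0.0593). CDH2, the N-cadherin gene, was the only call among 13 primed and formative markers, at 13.6 and 13.1 CPM against 3.62 and 3.59 CPM (log2 fold change -1.88, SE 0.27).

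Genes of general and naive pluripotency gave no calls against N2B27 of Ex2. None of 7 general pluripotency genes passed, and POU5F1 (-0.07), SOX2 (0.02) and NANOG (0.22) had 95% intervals that excluded a doubling in either direction. Of 12 naive markers, KLF5 alone passed the adjusted p, at a log2 fold change of -0.48. KLF17 was at 74.5 and 75.9 CPM against 85.7 and 99.8 CPM and did not pass. With other references, which are described below, naive markers were called higher in XAV. These were KLF4 (1.06) and ARGFX (1.80) against N2B27 of Ex1, ARGFX alone (1.45) against the N2B27 libraries of both experiments, and KLF4 (1.87) and KLF17 (2.20) with the difference between the naive cells taken out. No general pluripotency gene was called with any of these references. Of 18 FGF/ERK genes none was called, although FGF4 was higher (0.59) and FGF2 (-0.37) and DUSP4 (-0.87) were lower at an adjusted p under 0.05. None of 11 Activin/Nodal, 11 Notch, 16 cell cycle and 10 p53 target genes was called or passed the adjusted p alone against N2B27 of Ex2, and calls of these lists with other references are given below.

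Secreted and matrix genes supplied further falls. PLAU, the plasminogen activator urokinase, fell from 54.5 and 62.3 CPM in N2B27 to 17.7 and 25.7 CPM with XAV (log2 fold change -1.43, SE 0.30). THBS1 (-1.34) and COL18A1 (-1.11) were among the 3 calls of 24 tested matrix and integrin genes, while the fibronectin gene FN1 stood at -0.09. SPP1, or osteopontin, chosen after its values were seen, was among the most abundant called genes at 391.9 and 376.5 CPM against 164.2 and 183.2 CPM.

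ANXA1, which encodes the membrane-binding annexin A1, was at 86.0 and 83.7 CPM in N2B27 and 14.7 and 19.7 CPM with XAV (log2 fold change -2.30, SE 0.20). NPPB, known as a marker of stretched heart muscle, was at 37.8 and 40.4 CPM against 8.65 and 6.37 CPM (-2.38, SE 0.23). RGS5, a regulator of G-protein signalling found in pericytes, was at 55.8 and 47.3 CPM against 16.1 and 17.7 CPM (-1.60, SE 0.19), and the proteoglycan gene SDC2 had a log2 fold change of -1.41 (SE 0.23). ENPEP, an aminopeptidase chosen after its values were seen, was at 4.69 and 3.81 CPM against 0.201 and 0.797 CPM.

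Genes of cholesterol synthesis gave 1 call among 12 listed genes. All 12 had a log2 fold change below 0, from -0.30 for FDPS to -1.19 for MVD with a median of -0.53, and an unadjusted p under 0.05, which 9.35% of all genes had in either direction. MVD was the call (54.2 and 54.9 CPM against 21.9 and 25.9 CPM, log2 fold change -1.19, SE 0.19), and 8 of 12 passed the adjusted p (1.2% of all genes did so in this direction), among them HMGCS1 (-0.71), an early enzyme of the pathway, and its regulator INSIG1 (-0.76). With the N2B27 libraries of Ex1 as the reference the median of this list was 0.089 and no member was called.

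The 6 genes that rose had modest levels. KIT, the receptor of stem cell factor, was at 12.8 and 10.2 CPM in N2B27 and 28.4 and 26.9 CPM with XAV (log2 fold change 1.27, SE 0.23, adjusted p = 0.000939). GYPC, a membrane glycoprotein, was at 11.5 and 9.51 CPM against 24.6 and 23.3 CPM, and the cholesterol exporter ABCA1 at 26.1 and 27.6 CPM against 57.4 and 51.0 CPM. RGS4, chosen after its values were seen, was at 4.17 and 4.995 CPM against 15.7 and 16.5 CPM. The mean level of all 6 was higher in N2B27 of Ex1 than in N2B27 of Ex2, while 48.8% of all tested genes had a lower mean in Ex1. The 6 were chosen for low values in N2B27 of Ex2, which favours a higher mean in any other N2B27 group. Nothing is read from that count. None of the 6 was called when the Ex1 libraries were the reference.

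The values depended on which N2B27 libraries served as the reference. Between the N2B27 day 4 libraries of Ex2 and Ex1, which share medium, day and matrix, 65 genes were higher (0.39%) and 103 lower (0.618%) in Ex2, more than XAV and N2B27 of Ex2 gave. ACTC1 was at 23.7 and 21.7 CPM and TAGLN at 64.3 and 58.8 CPM in N2B27 of Ex1, between the XAV and the N2B27 values of Ex2. For 75 of the 89 lower genes the N2B27 mean was lower in Ex1 than in Ex2, as it was for 48.8% of all tested genes. Because the 89 were chosen for high values in N2B27 of Ex2, a lower mean in any other N2B27 group is favoured by that choice, and nothing is read from this count. The same choice favours the next counts. Of the 89, 16 were called higher in N2B27 of Ex2 than of Ex1, and the rise from naive cells to day 4 in N2B27 was called greater in Ex2 for 15 and smaller for 1, where 6.48% of all genes differed in either direction. Experiment and reference cannot be told apart in a comparison of XAV with Ex1.

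Against N2B27 of Ex1, 154 genes were lower with XAV (0.924%) and 56 were higher (0.336%). Of the 89 genes, 28 were called lower there, 86 had a log2 fold change below 0, and the median was -0.85. Both XAV libraries were below both N2B27 libraries of Ex1 in 82 of the 89 genes, as they were in 29.5% of all tested genes. The XAV libraries of this count also took part in choosing the 89. In the actomyosin list the 7 calls became 1, ACTC1 (log2 fold change -1.33, adjusted p = 0.00022), and the median became -0.36. TAGLN (-0.85) and CALD1 (-0.76) passed the adjusted p without reaching the fold, and CNN1 (-0.36, adjusted p = 0.41) passed neither. Outside that list TTN (-2.03), NPPB (-1.30), RGS5 (-1.51), BMP4 (-1.13), ANKRD1 (-3.92) and TNNT2 were called lower against Ex1, while NEXN (0.32) and GREM1 (0.076) changed sign. The YAP/TEAD list had 3 calls against this reference, ANKRD1, CCN1 (-1.18) and AMOTL2 (-1.19). The WNT feedback list had 1, SP5 (-1.05, adjusted p = 0.018).

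**Figure D4:**
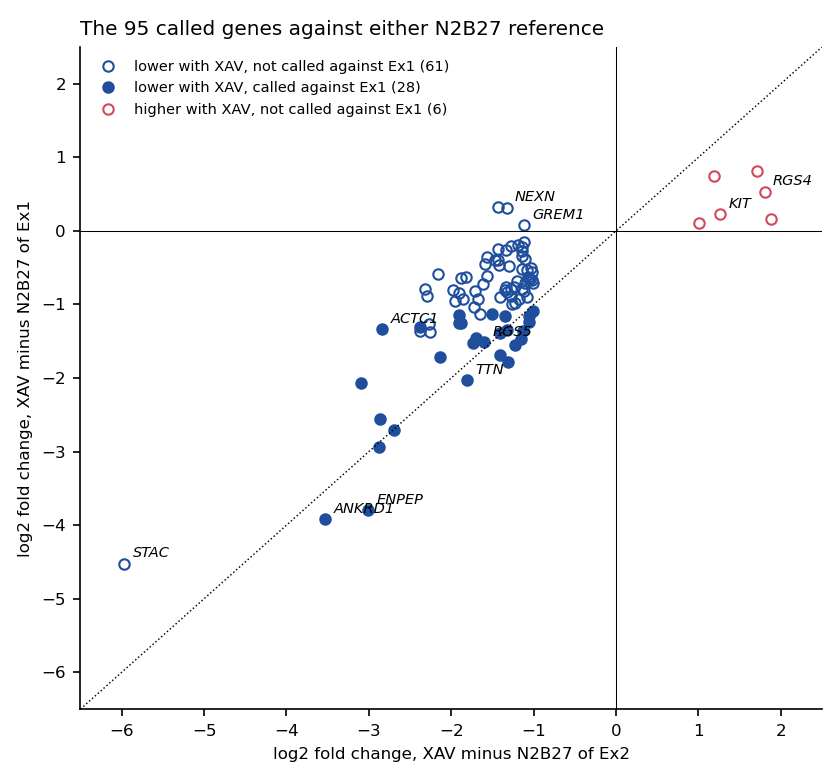
Log2 fold change of XAV against N2B27 of Ex2 (horizontal axis) and against N2B27 of Ex1 (vertical axis) for the 95 genes called against Ex2. Filled points were also called against Ex1 (28 of 89 lower genes, 0 of 6 higher genes), open points were not, and the dotted line marks equal values. Both axes share the XAV libraries, and the horizontal axis chose the genes, so points are drawn away from 0 along it. Most blue points lie above the dotted line, nearer to 0 against Ex1.

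With the pooled 4 N2B27 libraries as the reference, 77 genes were lower and 12 higher, and 4 of the actomyosin genes were called. Taking out the difference between the naive cells of both experiments, 16 of the 89 kept their call, where 3.28% of all genes were called lower. The naive libraries of Ex2 are labelled day 0 but carry a day 4 mark in their library names, so that this last reference is less sure. The 12 genes that were called lower against all 3 other references were ACTC1, BMP4, RGS5, ENPEP, NRP2, EFNA1, NRK, LVRN, MAMDC2, BIN2, RAB17 and WWC3, a set chosen after values were seen. Of these 12, 8 lost their call against N2B27 of Ex2 in at least 1 of the fits that left out a library, all but ACTC1, BMP4, RGS5 and ENPEP, and WWC3 lost it in all 4 of them. ACTC1, BMP4, RGS5 and ENPEP were called in all 15 settings tried.

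Other lists also gained calls when the reference changed. TBXT was called lower against N2B27 of Ex1 (log2 fold change -1.39, adjusted p = 0.000622) and against the pooled libraries (-1.17, adjusted p = 0.002), as was CYP26A1, and the streak factor EOMES was called lower against Ex1 (-1.76). CYP26A1 went the other way, to 2.09, with the naive difference taken out. The ERK target genes DUSP6 (-1.30) and EGR1 (-1.005) and the WNT receptor FZD6 (-1.28) were called lower against Ex1, and the Notch modifier LFNG was called higher (1.05). With the naive difference taken out, the Nodal pathway genes NODAL (1.11), LEFTY1 (1.31) and LEFTY2 (1.60), the Notch list genes DLL1 (3.97) and LFNG (1.42), the BMP list genes ID1 (2.01) and ID4 (1.92), and the streak factor MIXL1 (2.15) were called higher, and the streak list then had no gene called lower and a median of 0.74. By the same reference the p53 target genes CDKN1A (-1.13), which is also on the cell cycle list, and GDF15 (-1.62) were called lower. In the FGF/ERK list it gave ETV1, ETV5 and FGF8 higher and SPRY1 lower.

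Most of the genes lower with XAV were called higher in N2B27 at day 4 than in naive cells of Ex1. In Ex1, whose libraries enter neither side of the comparison of XAV with N2B27 of Ex2 but share its filter and its estimate of the spread, 64 of the 89 (71.9%) were called higher at day 4 in N2B27 than in naive cells, against 11.7% of all tested genes, and 5 were called lower, against 4.98%. From day 4 to day 8 in N2B27 of Ex1, 37 of the 89 rose further (41.6%, against 5.78% of all genes) and 2 fell (1.73% of all genes). These comparisons of Ex1 share its day 4 libraries. The 89 were chosen for being higher in N2B27 of Ex2 than with XAV, which favours genes that are expressed in N2B27 at day 4, so these shares are a description and not independent of the choice. The XAV mean, which lay below the N2B27 mean of Ex2 by that choice, was above the naive mean of Ex2 for 69 of the 89 genes and below it for 20.

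ACTC1 went from 0.224 and 0.180 CPM in the naive libraries of Ex1 to 23.7 and 21.7 CPM at day 4 and 51.8 and 52.4 CPM at day 8. The N2B27 cells of Ex2 had thus reached at day 4 an ACTC1 level above that of day 8 in Ex1, and the XAV cells were below day 4 of Ex1. TAGLN had reached 130.4 and 133.5 CPM at day 8 of Ex1, close to its day 4 values in N2B27 of Ex2. RGS5 and BMP4 differed by 0.09 and 0.37 on the log2 scale between N2B27 of Ex2 and Ex1 at day 4 (adjusted p = 0.84 and 0.14), with RGS5 at 49.4 and 47.1 CPM in Ex1. Both were called higher at day 8 than at day 4 of Ex1, where RGS5 stood at 259.5 and 213.1 CPM and BMP4 at 171.6 and 156.2 CPM. AXIN2 stood at 35.7 and 34.1 CPM in the naive libraries of Ex1 and 21.5 and 18.3 CPM in those of Ex2, with 42.8 and 41.6 CPM at day 4 and 42.1 and 54.4 CPM at day 8 of Ex1.

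**Figure D5:**
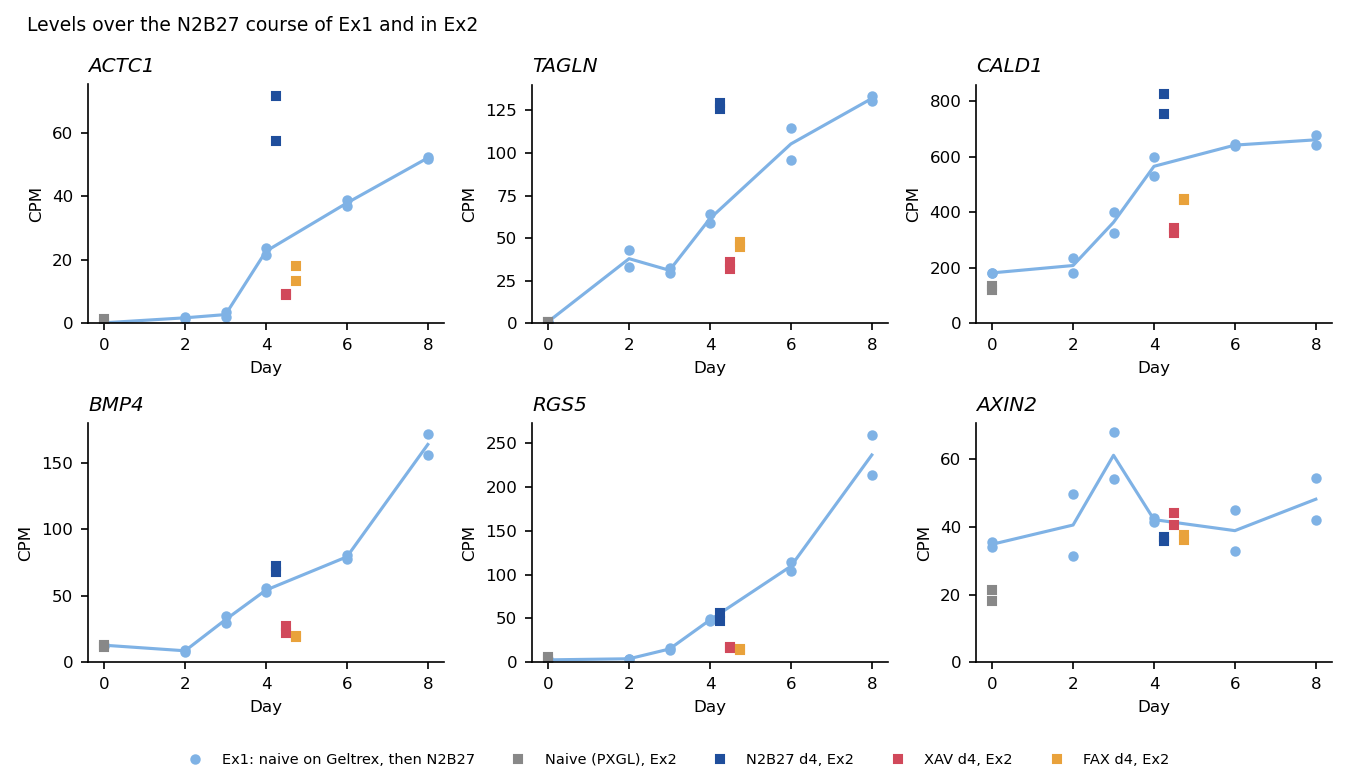
Level in CPM (vertical axes, linear from 0) of 6 genes by day (horizontal axes) in Ex1 from naive cells on Geltrex through N2B27 (light blue points with a line through the means) and in Ex2 (squares: naive grey, N2B27 dark blue, XAV red, FAX orange; the day 4 squares are set apart sideways for legibility). ACTC1, TAGLN and CALD1 are higher at day 4 in N2B27 of Ex2 than in Ex1, RGS5 overlaps, and all but AXIN2 have their XAV squares below both N2B27 groups.

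Few of these genes were lower in other media. In Ex1 at day 4, 3 of the 89 genes were lower in E8 than in N2B27 (1.13% of all genes were) and 8 were higher (1.36% of all genes). In mTeSR 2 were lower (0.768% of all genes) and 8 were higher (0.81%). ANXA1 and ACTA1, for example, were higher in E8 by 1.14 and 1.12 on the log2 scale.

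FAX, which adds FGF2 and Activin A to XAV, gave few calls against XAV. Over all genes 2 were higher in FAX than in XAV (0.012%) and 0 were lower with edgeR, while 937 genes had an unadjusted p under 0.05, and DESeq2 called 1 gene. The genes were LEFTY2, a Nodal antagonist and target of Activin signalling (60.0 and 55.8 CPM in XAV, 160.7 and 155.5 CPM in FAX, log2 fold change 1.45, SE 0.22), and an unnamed locus. Of the 95 genes called for XAV against N2B27, 0 differed between FAX and XAV by the same rule with edgeR or DESeq2, and 32 had an unadjusted p under 0.05 (5.62% of all genes had one). For 79 of the 89 lower genes the FAX mean lay between those of XAV and N2B27, and the median log2 difference of FAX minus XAV over the 89 was 0.44. Since the 89 were chosen for low XAV values, a higher mean in another group is favoured by that choice. Against N2B27, 35 of the 89 were called lower in FAX (0.276% of all genes were). The comparisons of XAV and FAX with N2B27 share its libraries, so their values are only set side by side. ACTC1 was at 18.1 and 13.3 CPM in FAX (log2 fold change against N2B27 -2.05, against -2.84 for XAV), TAGLN at 47.9 and 44.7 CPM (-1.46 against -1.90), and BMP4 at 19.1 and 19.9 CPM (-1.85 against -1.51). KIT was at 14.3 and 14.7 CPM in FAX, between N2B27 and XAV.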

How the data were processed

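The authors processed QuantSeq 3′ reads with the nf-core rnaseq workflow on hg38, and their notes name FastQC 0.11.9, STAR 2.7.10a, Salmon 1.9.0 and DESeq2. The annotation release is not given in the sources used here. The values the authors deposited are raw counts per gene symbol (57133 genes, 14445 with 0 counts in all libraries). Of the listed genes, 3 appear there under an older symbol.

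From these counts, R 4.3.3 with edgeR 4.0.16 kept 16674 genes by filterByExpr (99.65% of all counts), scaled libraries by TMM, and fitted 19 groups of 2 libraries, so that all groups share the estimate of the spread (common dispersion 0.01, prior df 12.7). Contrasts were tested with quasi-likelihood F-tests, two-sided, with Benjamini-Hochberg adjustment over all genes, and called at an adjusted p under 0.05 and an absolute log2 fold change above 1. SE values were derived from F. The median 95% half-width of a log2 fold change was 0.308 for genes of 20 CPM or more and 0.558 for genes of 5 to 20 CPM. The floor was 3 counts per library, and floors and counting intervals cover counting error only. The steps were tested on simulated data.

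The libraries and the 23 gene lists (326 genes) were chosen with earlier results of these data known. Genes were named when on a list, or when among the up to 15 largest called falls or rises whose higher group averaged 20 CPM or more and whose libraries did not overlap. Some genes that met this rule are left out of the text. Any other gene is marked in the text as chosen later. Positions are from GENCODE release 44, looked up by symbol. Alternatives were DESeq2 1.42.0, other scaling, filters, smaller fits, a replicate block, leaving out libraries, and other N2B27 references. Dose was not used here.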

Additional observations from a re-analysis of the deposited data

Results flagged for a closer look

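For 6 of the genes named here, the rise from naive cells to day 4 in N2B27 differed between the experiments in a test of the difference itself (edgeR, adjusted over all genes, 6.48% of which were called by the same rule). Only genes called with XAV that were on a list or among the largest changes were screened. Other genes named here were not part of this screen. Values are log2, second minus first experiment. CSRP1 rose by 4.498 in Ex2 and 2.05 in Ex1, a difference of 2.45 (SE 0.63, adjusted p = 0.00954). The difference was 1.69 for PALLD, 2.88 for SDC2, 2.57 for GATA3 and 1.12 for GREM1, all of which rose more in Ex2. GYPC went the other way, with a value of -1.49, since it stood at 0.26 in Ex1 and -1.22 in Ex2. These genes were called because N2B27 of Ex2 stood above XAV, or below it for GYPC, and that choice favours a larger change in Ex2 in the same direction. Naive levels of Ex2 enter each of these values, and the day mark in those library names differs from their label.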

How the results depend on the processing

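Counts of genes higher and lower with XAV were 6 and 89. The count of 89 held within 1.5 times with RLE scaling, plain totals, a stricter filter, no filter, DESeq2 (6 higher, 71 lower) and the 8 libraries of Ex2 (111), and the count of 6 rose to 19 without a filter and to 28 with the 8 libraries of Ex2. The 4 compared libraries alone gave 41 and 140, and the adjusted p alone gave 23 and 200. Genes lower made up 93.68% of all calls, 77.35% with the 4 libraries alone, 79.86% with the 8 of Ex2, 73.33% against Ex1 and 54.65% with the naive difference taken out. Leaving out 1 library gave 4 to 6 genes higher and 52 to 70 lower (52 without XAV replicate 1, 53 without N2B27 replicate 2), with the lone library assumed to vary like the other groups, and 37 of the 89 and 2 of the 6 were called in all 4 of these fits. The YAP/TEAD count then was 1 to 3, the actomyosin count 7 to 9, and the WNT feedback count 0. Replicate numbers do not pair the libraries (correlation of replicate differences between XAV and N2B27 -0.000663), and the replicate block gave 6 and 85 and no other list count.

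Other references, of which Ex1 alone was added after the data were seen, moved more. Pooled N2B27 gave 12 genes higher and 4 actomyosin calls. Ex1 alone gave 56 and 154, with 1 actomyosin and 1 WNT feedback call. With the naive difference taken out there were 454 and 547, 1 actomyosin call and 3 WNT feedback calls, 1 lower (RNF43) and 2 higher (BAMBI and TCF7). The YAP/TEAD count was 1 with DESeq2 and 6 by adjusted p alone, and the actomyosin count was 11 by adjusted p alone. Log2 fold changes reversed with the naive difference taken out for ANXA1 (0.33), CSRP1 (0.60), PALLD (0.26), SDC2 (1.47), GYPC (-0.30), CYP26A1 (2.09), GREM1 (0.00069), GATA3 (1.4), THBS1 (0.14), NEXN (0.84), RGS4 (-0.011) and ST3GAL6 (-0.41), and against Ex1 alone for GREM1 (0.076) and NEXN (0.32). These are genes called with XAV. Outside the calls, CCN1 also changed sign, with values from -1.18 to 0.25 over the settings. The cause of the reversals was not tested. Genes of few counts have intervals too wide to read a change under a doubling.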
